A study of Mus musculus with 76 samples.

Results

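The 40 genes described here are genes of the cell cycle and of proliferation, listed by symbol. The listing uses no measured value as a threshold, but it was drawn up with earlier results of these data known. All 40 were among the 55536 genes of the deposited count table, and all 40 passed the filter on low counts in each of the comparisons below. By role they were the proliferation marker and chromatin genes Mki67, Top2a, Hmgb2 and Stmn1, the cyclins Ccna2, Ccnb1, Ccnb2, Ccnd1, Ccne1 and Ccne2 with the kinase gene Cdk1, and the spindle checkpoint and anaphase-promoting complex (APC/C) genes Cdc20, Bub1, Bub1b and Ube2c. The mitotic kinase group held Aurka, Aurkb, Plk1 and Birc5, the spindle motor and microtubule group held Kif11, Kif20a, Kif23, Tpx2, Prc1 and Nusap1, and the centromere group held Cenpa, Cenpe and Cenpf. The others were the transcription factor gene Foxm1, the replication genes Mcm2, Mcm3, Mcm4, Mcm5, Mcm6, Mcm7 and Pcna, and the nucleotide synthesis genes Rrm1, Rrm2, Tyms and Tk1.

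As background, a dividing cell passes from G1, where D cyclins start the commitment to divide, through S phase, which cyclin E and the MCM helicase open, to mitosis, which cyclin B with CDK1 drives. The genes of S phase are switched on mostly by E2F factors. Those of G2 and mitosis are switched on by the MuvB complex together with B-Myb and FOXM1. Promoters of G2 and mitosis genes often hold cell cycle homology regions (CHR) and CCAAT boxes. In tumors the RNA of these genes is commonly read as a measure of how many cells are cycling, whether tumor, immune or stromal.

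The samples were 38 subcutaneous flank tumors of female Balb/c mice aged 6 to 12 weeks, each sequenced as 2 technical libraries with HT3DGE, a bulk RNA-seq method that reads the 3′ ends of transcripts. CT26 is a colon carcinoma line and 4T1 a mammary carcinoma line, both from Balb/c mice, and 1000000 CT26 cells, or 500000 cells of 4T1 or a line made from it, were inoculated on day 0. Every tumor, the controls included, received 100 ug of alum, an aluminium salt adjuvant, into the tumor (i.t.) on day 6 and was harvested on day 8. These are the days of the sample labels, and the study's methods number them differently. In the CAT-ABP + alum groups the injection also held 20 ug of CAT-ABP, catalase carrying an alum-binding peptide that keeps this hydrogen peroxide-degrading enzyme in the tumor outside cells. The 7 groups held 5 alum and 6 CAT-ABP + alum tumors of CT26, the same numbers of 4T1, 5 of each treatment of 4T1-CAT, and 6 tumors of 4T1-control, for which there was an alum group and no CAT-ABP group. The 4T1-CAT cells carried a lentiviral, doxycycline-inducible construct for catalase inside the cell, joined through a self-cleaving peptide to GFP, and the 4T1-control cells carried GFP without catalase. Mice with either transduced line ate doxycycline diet from day 4, whereas mice with CT26 or untransduced 4T1 tumors did not. Each model is 1 line, so a difference between CT26 and 4T1 is one between these lines and their tumors, and in whole-tumor RNA fewer cycling cells and less RNA per cell cannot be told apart.

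Summed over both technical libraries, the tumors held 493086 to 9077683 counts. The 2 shallowest were 4T1-control alum replicate 2 (493086 counts) and 4T1 CAT-ABP + alum replicate 4 (837522 counts), and results that they moved are also given without them. The libraries were assigned to 4 pools here from the first part of their index tags, and 1 tag was shared between libraries. By these pools, all CT26 tumors, all 4T1 CAT-ABP + alum tumors and 4T1 alum replicates 1 and 2 were apart from the remaining tumors. Mouse Cat, read apart from the introduced catalase, which the table did not list as a gene of its own, had 37.2 ± 3.02 counts per 1000000 counts (CPM; SD, n = 5) in 4T1-CAT alum tumors and 40.1 ± 5.42 CPM (SD, n = 6) in 4T1-control alum tumors, so it does not check the transgene. The 9 epithelial markers summed to 41.3 to 84.7 CPM in CT26 tumors, with Cldn7 at 0 in all of them. In the 4T1, 4T1-CAT and 4T1-control tumors they summed to 1488 to 2901 CPM. There too Cldn7 was the lowest of the 9, with group means of 0.21 to 1.05 CPM, whereas Krt8, Krt18 and Epcam were each at least 222 CPM on average. The 8 T and NK cell markers, with no gene at 0 in any group, summed to 184 to 658 CPM in CT26 tumors and 36.7 to 147 CPM in the 4T1, 4T1-CAT and 4T1-control tumors.

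Promoter sequence is shown for 5 genes that differed between CT26 and 4T1 tumors in both line comparisons, the first pair higher in CT26 and the other 3 lower. Each run is 150 bases just upstream of the first annotated exon, 5′ to 3′ on the gene's strand, from RefSeq (GRCm38.p6), with matches to a CHR (searched as TTTGAA and in the variant forms TTCGAA, then TTTAAA, then also as CTTGAA) or a CCAAT box, on either strand, in capitals. The Ube2c run is chr2:164769748-164769897 (+), the Ccne1 run chr7:38107535-38107684 (-), the Mki67 run chr7:135716380-135716529 (-), the Ccnb2 run chr9:70421555-70421704 (-) and the Top2a run chr11:99024190-99024339 (-).
Ube2c: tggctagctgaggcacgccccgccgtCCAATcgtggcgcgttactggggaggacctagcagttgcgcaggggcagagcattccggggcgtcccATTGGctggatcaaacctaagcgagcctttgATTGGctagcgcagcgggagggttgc
Ccne1: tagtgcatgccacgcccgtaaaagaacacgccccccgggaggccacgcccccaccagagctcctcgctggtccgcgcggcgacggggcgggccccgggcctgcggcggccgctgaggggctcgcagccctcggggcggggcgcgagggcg
Mki67: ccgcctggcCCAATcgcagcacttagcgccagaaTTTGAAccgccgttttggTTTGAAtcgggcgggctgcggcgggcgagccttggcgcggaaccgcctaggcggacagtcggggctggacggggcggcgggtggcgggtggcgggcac
Ccnb2: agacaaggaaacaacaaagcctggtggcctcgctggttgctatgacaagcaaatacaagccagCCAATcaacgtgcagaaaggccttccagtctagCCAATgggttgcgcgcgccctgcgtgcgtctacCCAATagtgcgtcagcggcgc
Top2a: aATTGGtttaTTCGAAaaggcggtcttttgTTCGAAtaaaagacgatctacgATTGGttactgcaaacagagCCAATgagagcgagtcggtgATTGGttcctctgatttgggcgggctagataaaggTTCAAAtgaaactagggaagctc
The Mki67 run held TTTGAA at 116 and 98 bases before the start, and the Top2a run held TTCGAA at 140 and 120 and a reverse-strand match, TTCAAA, at 23. The Ccnb2 run held a CCAAT box at 87, 54 and 21 bases before the start, and the Ube2c run held CCAAT at 155 and its reverse, ATTGG, at 88 and 57. No searched CHR or CCAAT letters were in the Ccne1 run. Of the other genes that differed in both comparisons, Foxm1 and Kif20a had no RefSeq promoter. Pcna, also higher in CT26, is not shown. Its run was 116 bases, held no searched CHR or CCAAT letters and overlapped 1 annotated exon. The distances of the matches are counted from the RefSeq start. The Ube2c run spanned 181 to 32 bases before it, the Ccne1 run 194 to 45, and the Mki67, Ccnb2 and Top2a runs 150 to 1. In GENCODE M21 (GRCm38) the genes themselves span chr2:164769898-164778822 (+) for Ube2c, chr7:38097984-38107534 (-) for Ccne1, chr7:135689784-135716361 (-) for Mki67, chr9:70407692-70421547 (-) for Ccnb2 and chr11:98992943-99024189 (-) for Top2a, and Foxm1 spans chr6:128362967-128376146 (+).

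Over the wider window from 250 bases before to 50 after the start, 31 of the 40 genes had a RefSeq promoter. The genes Aurkb, Ccna2, Ccnd1, Ccne2, Foxm1, Kif20a, Mcm4, Stmn1 and Tpx2 had none. A CHR match was in 80.6% of the 31 (Wilson 95% interval, 63.7 to 90.8%) against 40.8% of 27025 genes, and a CCAAT box in 83.9% against 41.1%. E2F letters (TTTNGCGC, TTCCCGCC or TTTCCCGC, of which the last pair can overlap) were in 19.4% of the 31 against 4.59% of all genes. Of the 19 matched genes of G2 and mitosis, 94.7% held a CHR match and 5.26% E2F letters, and of the 11 matched genes of S phase, 54.5% held a CHR match and 45.5% E2F letters. A match is a description of letters, not of a bound site.

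Across the 7 groups the difference between the highest and the lowest group mean of a gene was 0.25 to 1.80 on the log2 scale, with a median of 0.59, against a pooled SD within groups of 0.15 to 0.57, with a median of 0.28. The difference was over 1 for 4 genes, namely Ccne1 (1.80), Foxm1 (1.69), Kif20a (1.03) and Prc1 (1.02), and it was smallest for Kif11 (0.25), a motor that separates the spindle poles. The highest group mean was in CT26 CAT-ABP + alum tumors for 23 genes, and the lowest was in 4T1-control alum tumors for 19. A tumor's mean log2 CPM over the 40 genes was 6.90 ± 0.12 (SD, n = 6) in CT26 CAT-ABP + alum, 6.76 ± 0.25 (n = 5) in CT26 alum, 6.71 ± 0.07 (n = 6) in 4T1 CAT-ABP + alum and 6.67 ± 0.07 (n = 5) in 4T1 alum tumors. The same mean was 6.74 ± 0.14 (n = 5) in 4T1-CAT CAT-ABP + alum, 6.65 ± 0.10 (n = 5) in 4T1-CAT alum and 6.47 ± 0.11 (n = 6) in 4T1-control alum tumors. Without the 2 shallowest tumors it was 6.73 ± 0.06 (n = 5) in 4T1 CAT-ABP + alum and 6.4994 ± 0.09 (n = 5) in 4T1-control alum tumors. Single tumors moved many of the genes together, since CT26 alum replicate 2 was the lowest of its 5 tumors for 33 genes and 4T1-CAT CAT-ABP + alum replicate 3 the lowest of its 5 for 28.

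**Figure D1:**
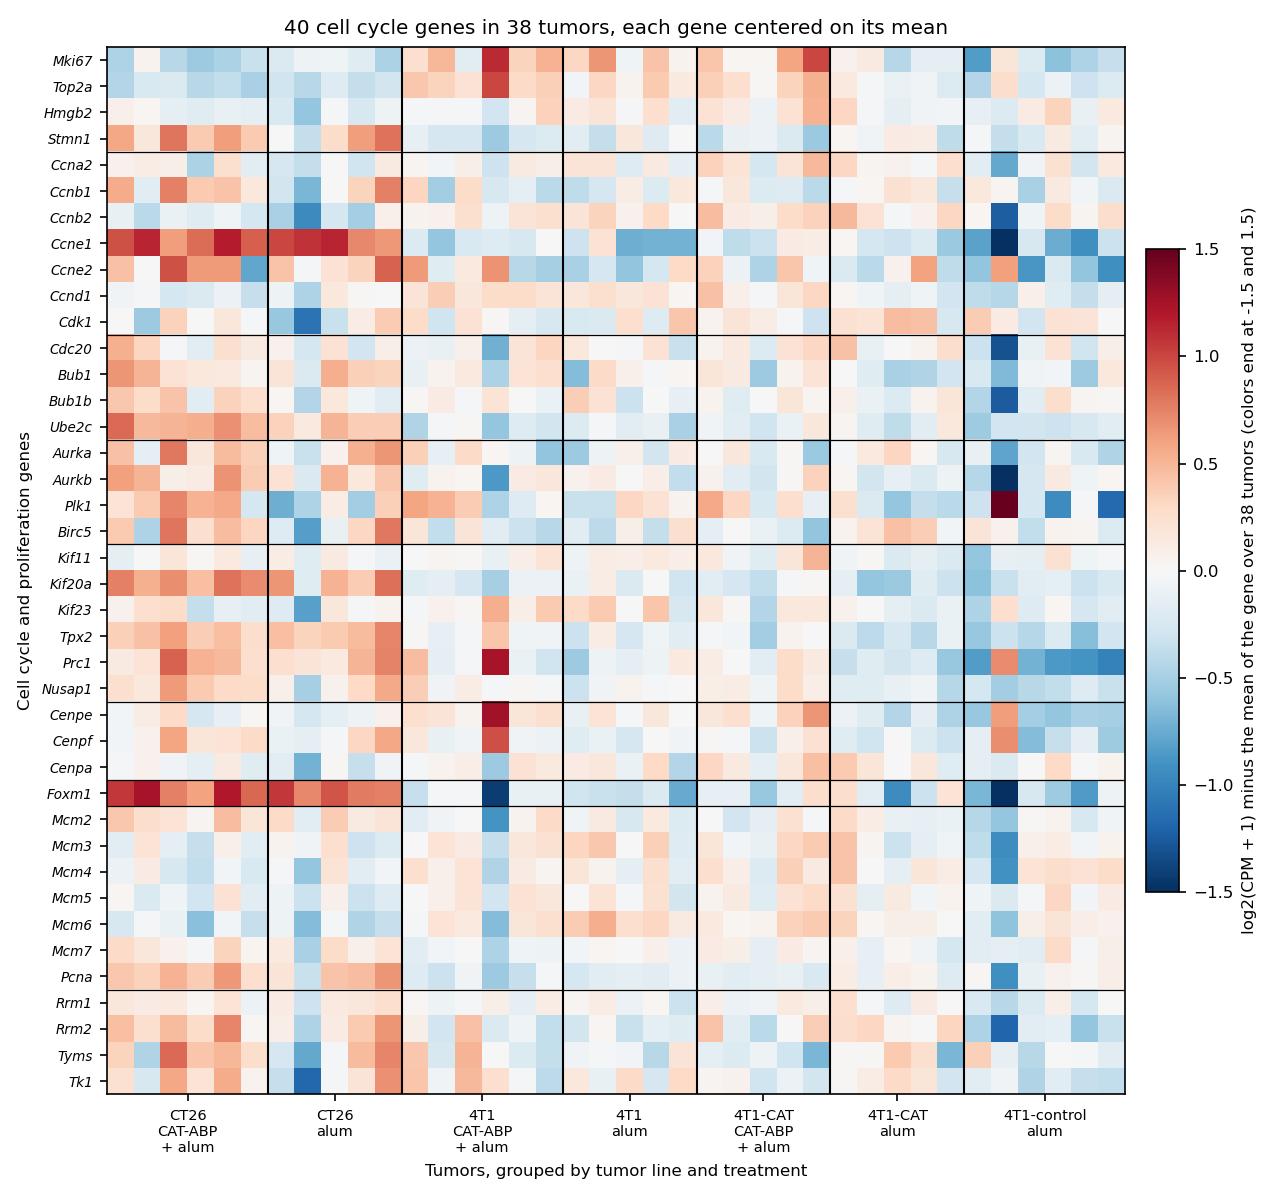
Each row is 1 of the 40 genes and each column 1 of the 38 tumors by group, and the colour is log2(CPM + 1) minus the gene's mean over all tumors, with the scale ending at 1.5 in either direction. Ccne1, Foxm1 and Kif20a were high in both CT26 groups, Mki67 and Top2a were low there, and CT26 alum replicate 2 was low for most genes of its group.

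**Figure D2:**
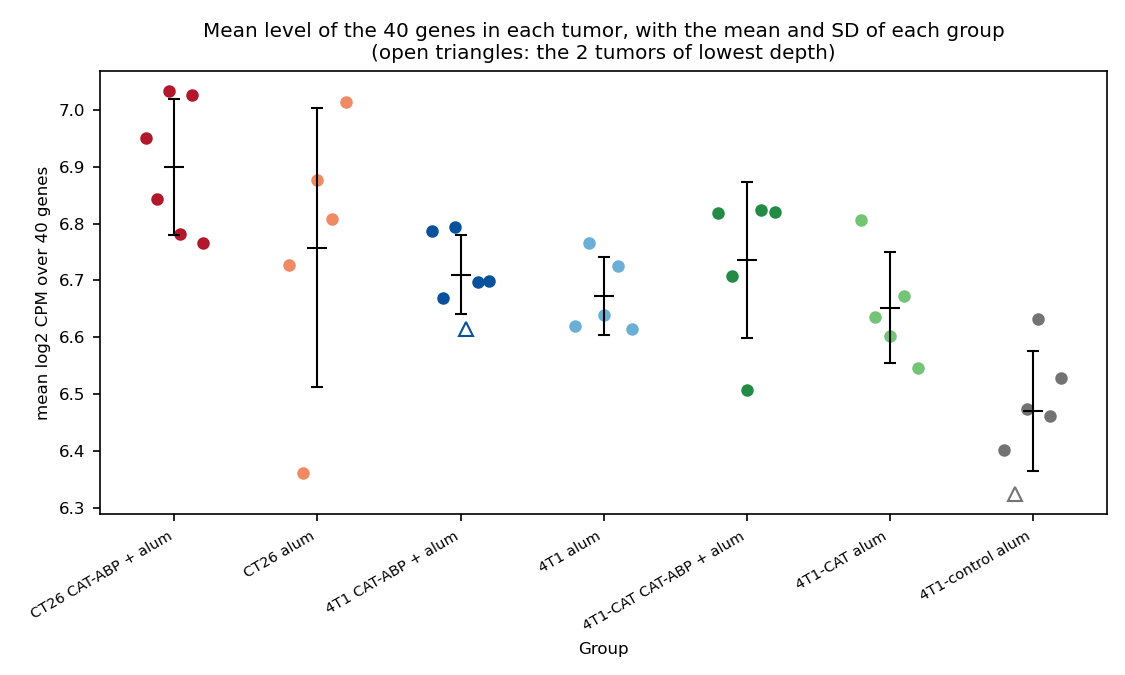
Points are single tumors, and the y axis is the mean log2 CPM over the 40 genes, with each group's mean and SD; open triangles mark the 2 tumors of lowest depth. The 4T1-control alum tumors lay between 6.32 and 6.63, and the CT26 alum tumors spread from 6.36 to 7.01.

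The first comparison asked how the cycling program of the 2 tumor models differed without added catalase. Between CT26 alum and 4T1 alum tumors, 12 of the 40 genes differed by edgeR's quasi-likelihood test at a Benjamini-Hochberg adjusted p of at most 0.05, which is 30% against 42.4% of the 12817 genes tested; 14 had an unadjusted p under 0.05, against 50.2% of all genes. Of them 8 were higher in CT26 (21.3% of all genes were) and 4 lower (21.1%). The median log2 difference was 0.12 over the 40 genes and 0.02 over all genes. The CPM of the 5 CT26 and the 5 4T1 tumors did not overlap for 6 of the 40 genes, or 15.0%, against 29.5% of all genes. By role, 3 of 6 spindle motor and microtubule genes, 2 of 7 cyclin and CDK1 genes, Ube2c of the 4 checkpoint and APC/C genes, Foxm1, and Pcna of the 7 replication genes were higher. Lower were 2 of the 4 marker and chromatin genes, 1 of the 7 cyclin and CDK1 genes and 1 of the 7 replication genes, and no mitotic kinase, centromere or nucleotide synthesis gene passed the test.

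Foxm1, the gene of a forkhead factor that drives G2 and mitosis genes, had 85.3, 67.4, 78.9, 70.2 and 69.0 CPM in the 5 CT26 alum tumors and 32.8, 31.9, 31.5, 34.8 and 23.55 CPM in the 5 4T1 alum tumors. Its log2 difference was 1.29 ± 0.13 (SE; edgeR adjusted p = 1.301e-06), and the lowest CT26 tumor lay well above the highest 4T1 tumor. The exons of Foxm1 overlap those of Tex52 and Gm44596 on the same strand, so reads there cannot be assigned with certainty. Ccne1, which encodes the cyclin E that opens S phase with CDK2, had 31.8, 33.7, 35.2, 26.0 and 24.7 CPM in CT26 and 12.2, 18.1, 8.86, 9.02 and 9.06 CPM in 4T1 tumors. The log2 difference of Ccne1 was 1.45 ± 0.21 (edgeR adjusted p = 6.323e-05), again without overlap, and 4T1 alum replicate 2 was the highest of its group. Ccne2, the second cyclin E gene, was 22.75 ± 5.85 CPM in CT26 and 14.4 ± 4.04 CPM in 4T1 tumors (SD, n = 5 each), a log2 difference of 0.69 ± 0.22 (edgeR adjusted p = 0.0187) with overlapping tumors.

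Among the spindle genes, Tpx2, an activator of Aurora A on spindle microtubules, had 162, 149, 155, 165.5 and 197 CPM in CT26 and 94.3, 128.5, 99.2, 113 and 105 CPM in 4T1 tumors, a log2 difference of 0.64 ± 0.14 (edgeR adjusted p = 0.00128) without overlap. Kif20a, a motor of cytokinesis, was higher by 0.61 ± 0.17 and Prc1, which bundles midzone microtubules, by 0.54 ± 0.17 on the log2 scale. For both, the groups overlapped. CT26 alum replicate 2 had 61.2 CPM of Kif20a where the other 4 CT26 tumors had 91.6 to 125 CPM, and the lowest CT26 tumor had 308.9 CPM of Prc1 beside 309.2 CPM in the highest 4T1 tumor. Ube2c, the ubiquitin-conjugating enzyme that works with the APC/C, had 108, 94.4, 121.5, 110.4 and 110.5 CPM in CT26 and 74.02, 84.2, 76.2, 78.6 and 60.55 CPM in 4T1 tumors, a log2 difference of 0.57 ± 0.12 (edgeR adjusted p = 0.00159) without overlap. Its exons overlap, on the opposite strand, those of the muscle troponin gene Tnnc2, and the summed muscle markers were 65.0 to 680 CPM in CT26 alum and 126 to 405 CPM in 4T1 alum tumors; their part in the result was not tested. Pcna, the sliding clamp of DNA polymerase, was higher by 0.50 ± 0.17 (edgeR adjusted p = 0.0285), and 4 of the 5 CT26 tumors lay above the highest 4T1 tumor, with replicate 2 at 318.9 CPM below all 4T1 tumors. The Pcna call was lost in 12 of 23 alternative analyses, among them leaving out CT26 alum replicate 5 (0.40, edgeR adjusted p = 0.0642).

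The 4 genes lower in CT26 alum tumors included Mki67 and Top2a, whereas Pcna, which is also used as a marker of proliferation, was among the higher ones. Top2a, the topoisomerase that untangles replicated DNA, had 310, 286, 334, 297 and 313 CPM in CT26 and 369, 471, 395, 499 and 422 CPM in 4T1 tumors, a log2 difference of -0.46 ± 0.14 (edgeR adjusted p = 0.0127) without overlap. Mki67, which encodes the Ki-67 protein that coats mitotic chromosomes, had 145, 159, 161, 148 and 121 CPM in CT26 and 208, 266, 160, 226 and 174 CPM in 4T1 tumors, a log2 difference of -0.47 ± 0.16 (edgeR adjusted p = 0.0259). The Mki67 groups met at 160 CPM, where the highest CT26 tumor was just above the lowest 4T1 tumor, and the Mki67 call was lost on leaving out any 1 of 4 tumors (log2 difference -0.36, edgeR adjusted p = 0.077, without 4T1 alum replicate 2). Mcm6, a subunit of the replicative helicase, had 113, 75.45, 117, 86.7 and 93.7 CPM in CT26 and 154.5, 174.5, 141, 147.5 and 130 CPM in 4T1 tumors, a log2 difference of -0.60 ± 0.14 (edgeR adjusted p = 0.00329) without overlap. Ccnb2, a B cyclin, was lower by 0.55 ± 0.16 (edgeR adjusted p = 0.0136), with CT26 alum replicate 5 at 83.3 CPM inside the 4T1 range. The other 5 MCM genes had log2 differences between -0.21 and 0.24 and did not pass the test.

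The same comparison among CAT-ABP + alum tumors shared no tumor with the first. Here 11 of the 40 genes differed between CT26 and 4T1 (27.5% against 45.5% of 13016 genes), 7 higher in CT26 (21.8% of all genes were) and 4 lower (23.7%), and 19 had an unadjusted p under 0.05 against 52.1% of all genes. The median log2 difference was 0.18 over the 40 genes and -0.02 over all genes. The 6 CT26 and the 6 4T1 tumors did not overlap for 8 of the 40 genes, or 20.0%, against 21.8% of all genes. The genes higher in CT26 were Ccne1, Kif20a, Foxm1, Ube2c, Stmn1, Pcna and Aurkb, and those lower were Top2a, Mki67, Ccnd1 and Ccnb2.

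Ccne1 had 24.35 CPM in the lowest, 30.1 CPM in the median and 36.2 CPM in the highest CT26 tumor, against 9.95, 13.1 and 15.4 CPM in 4T1, a log2 difference of 1.24 ± 0.15 (edgeR adjusted p = 2.613e-06). Foxm1 had 62.1, 79.9 and 96.4 CPM against 14.5, 37.4 and 39.8 CPM, a difference of 1.2 ± 0.16 (edgeR adjusted p = 7.551e-06). Kif20a had 95.8, 114 and 123 CPM against 49.0, 62.4 and 65.9 CPM, a difference of 0.85 ± 0.11 (edgeR adjusted p = 7.46e-06). For these 3 genes every CT26 tumor lay above every 4T1 tumor, and the exact two-sided permutation test gave p = 0.002165 for each, the smallest that 6 against 6 tumors allow. Ube2c was higher by 0.81 ± 0.13, Stmn1, whose product destabilises microtubules, by 0.75 ± 0.13 and Pcna by 0.64 ± 0.13, all without overlap. Aurkb, the kinase of the chromosomal passenger complex, was higher by 0.45 ± 0.14 (edgeR adjusted p = 0.0146), with tumors that overlapped.

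Top2a had 272 CPM in the lowest, 289 CPM in the median and 328 CPM in the highest CT26 tumor and 443.5, 485 and 764 CPM in 4T1 tumors, a log2 difference of -0.87 ± 0.17 (edgeR adjusted p = 5.005e-04) without overlap. Mki67 had 115, 124 and 175 CPM against 151, 225 and 367 CPM, a difference of -0.88 ± 0.20 (edgeR adjusted p = 0.00191), and CT26 replicate 2 lay above the lowest 4T1 tumor. Ccnd1, the D cyclin that starts the exit from G1, had 317, 364 and 397 CPM against 455, 475.9 and 522.5 CPM, a difference of -0.45 ± 0.12 (edgeR adjusted p = 0.00548) without overlap. In alum tumors Ccnd1 had a difference of -0.20 ± 0.14 (edgeR adjusted p = 0.273), and the 2 line differences of Ccnd1 were not separable by the interaction test given below. The highest 4T1 values of Top2a (764 CPM) and Mki67 (367 CPM) and the lowest of Foxm1 (14.5 CPM) were those of 4T1 replicate 4, the tumor of 837522 counts. All 11 calls also held without that tumor. In that fit Top2a had a difference of -0.67, Mki67 -0.64 and Foxm1 1.12, and 14 of the 40 genes passed (35%, against 48.3% of all genes).

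**Figure D3:**
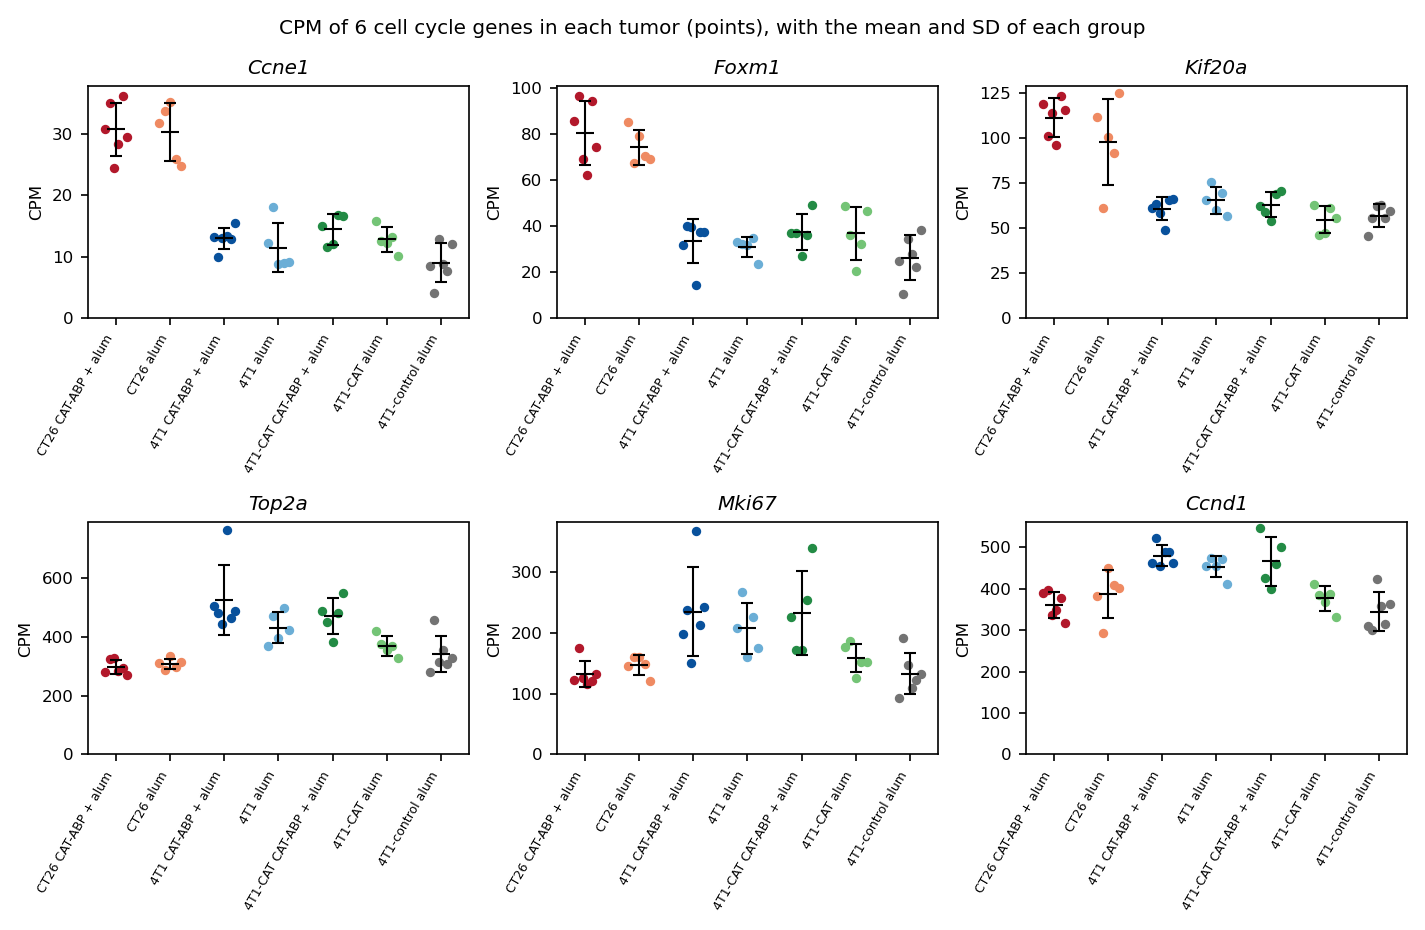
Each panel plots the CPM of 1 gene in each of the 38 tumors by group, with the group mean and SD. Ccne1, Foxm1 and Kif20a were higher in CT26 than in 4T1 tumors under either treatment, Top2a and Mki67 were lower, and Ccnd1 was lower with CAT-ABP + alum (361 ± 32.2 against 480 ± 25.1 CPM).

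Set side by side, 35 of the 40 genes had the same sign in both line comparisons. The same 8 genes passed the test in both with the same sign, which is 66.7% of the 12 and 72.7% of the 11. Of all genes, 10838 of the 12578 tested in both had the same sign (86.2%). Of them 4350 passed in both, which is 80.1% of the 5434 and 73.4% of the 5928. The members' shares that passed in both were not above those of all genes. The 8 were Ccne1, Foxm1, Kif20a, Ube2c and Pcna, higher in CT26, and Top2a, Mki67 and Ccnb2, lower in CT26. Within the pools that CT26 tumors shared with 4T1 alum replicates 1 and 2, 4 genes kept their call in alum tumors, namely Foxm1, Ccne1, Mcm6 and Mki67 (10%, against 27.4% of all genes in that fit). Against 4T1 alum replicates 3 to 5, in other pools, 7 passed (17.5%, against 32.9%). All CAT-ABP + alum tumors of both lines were in the same pools. The line differences also varied with transcript length. In CAT-ABP + alum tumors the median log2 difference of all genes was 0.25 in the 25% of genes with the shortest transcripts. It was -0.19 in the 25% with the longest. The corresponding medians were 0.30 for the shorter and -0.01 for the longer part of the 40 genes, and the part of transcript length in the result was not tested. Epithelial markers were lower and T and NK cell markers higher in every CT26 tumor than in every 4T1 tumor, and their part in the result was not tested.

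**Figure D4:**
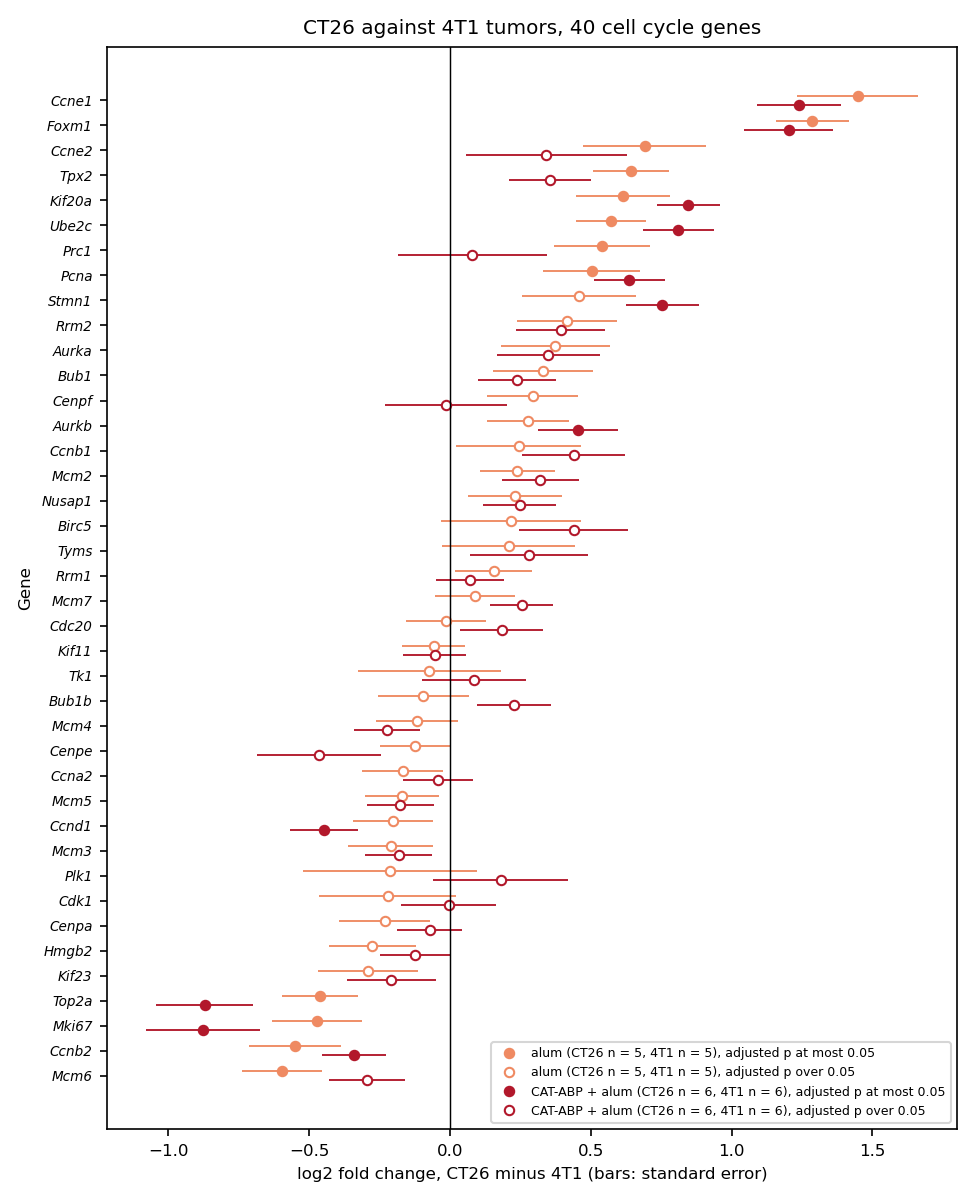
Points are the log2 difference, CT26 minus 4T1, of each of the 40 genes with its SE, in alum and in CAT-ABP + alum tumors, and filled points passed an edgeR adjusted p of 0.05. Ccne1 (1.45 and 1.24) and Foxm1 (1.29 and 1.2) stood highest in both, and Top2a (-0.46 and -0.87) and Mki67 (-0.47 and -0.88) lay on the lower side in both.

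The other genes of the cycle, 117 listed of which 112 were tested, differed between the lines in both directions. Among alum tumors 25 were higher and 15 lower in CT26 (35.7%), and among CAT-ABP + alum tumors 26 were higher and 19 lower (40.2%). These shares were below those of all genes, 42.4% and 45.5%. Of the G1 genes, Ccnd2, a D cyclin, was 145 ± 16.5 CPM in CT26 alum and 44.7 ± 8.82 CPM in 4T1 alum tumors (SD, n = 5 each), a log2 difference of 1.72 ± 0.14 (edgeR adjusted p = 1.632e-07). Ccnd3, the third D cyclin gene, was higher by 0.87 ± 0.16 and Myc, a growth-promoting factor, lower by 0.77 on that scale. Of the CDK inhibitors, Cdkn1a, which encodes p21, was 49.99 ± 5.06 against 15.3 ± 3.78 CPM, a difference of 1.73 ± 0.18 (edgeR adjusted p = 1.3e-06). Cdkn2c, which encodes p18, was 49.05 ± 10.5 against 143 ± 28.3 CPM, a difference of -1.51 ± 0.17 (edgeR adjusted p = 4.444e-06). Cdkn2a, which encodes p16 and p19Arf, was listed at 0 in all 38 tumors. Of the 58 other mitosis genes tested, 17 were higher and 5 lower among alum tumors, with Cenpm (1.93), a centromere protein gene, and Racgap1 (1.11), a cytokinesis gene, among the higher and Plk4 (-1.03), the centriole duplication kinase gene, among the lower. In CAT-ABP + alum tumors Ccnd2 (1.42), Cdkn1a (1.73) and Cenpm (2.44) were again higher and Cdkn2c (-1.07), Plk4 (-1.01) and Myc (-0.70) lower.

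The levels of 5 genes across all 7 groups show where the groups part. Ccne1 was 30.7 ± 4.39 CPM in CT26 CAT-ABP + alum and 30.3 ± 4.70 CPM in CT26 alum tumors, with the next group, 4T1-CAT CAT-ABP + alum, at 14.4 CPM and no tumor in common with either range. The remaining groups followed with 13.0 CPM in 4T1 CAT-ABP + alum, 12.8 CPM in 4T1-CAT alum, 11.4 CPM in 4T1 alum and 8.985 CPM in 4T1-control alum tumors, and each of these groups overlapped its neighbours in Ccne1. Mki67 ran from 235 ± 72.8 CPM in 4T1 CAT-ABP + alum through 232 ± 69.6 in 4T1-CAT CAT-ABP + alum, 207 ± 42.2 in 4T1 alum, 158 ± 23.6 in 4T1-CAT alum, 147 ± 16.0 in CT26 alum and 132 ± 33.95 in 4T1-control alum to 132 ± 21.7 CPM in CT26 CAT-ABP + alum tumors. Top2a followed the same order of groups, from 524 ± 119 to 297 ± 23.9 CPM, except that 4T1-control alum tumors, at 341 CPM, stood above CT26 alum tumors, at 308 CPM. Ccnd1 ran from 480 ± 25.1 CPM in 4T1 CAT-ABP + alum to 345 CPM in 4T1-control alum tumors, and Ccne2 from 23.05 ± 8.67 CPM in CT26 CAT-ABP + alum to 13.4 ± 6.84 CPM in 4T1-control alum tumors. For Mki67, Top2a, Ccnd1 and Ccne2, every pair of neighbouring groups in these orders overlapped. Without the 2 shallowest tumors Mki67 was 208 ± 36.8 CPM in 4T1 CAT-ABP + alum and 121 ± 20.4 CPM in 4T1-control alum tumors (n = 5 each), and Top2a 476.4 ± 22.95 and 318 ± 27.8 CPM. This put Mki67 in 4T1 CAT-ABP + alum below 4T1-CAT CAT-ABP + alum tumors and Mki67 in 4T1-control alum below both CT26 groups.

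The other 117 genes of the cycle gave 0 calls by edgeR in all comparisons that follow, with 0 to 23 of the 112 or 113 tested at an unadjusted p under 0.05. These comparisons asked whether catalase outside the cell changed the program. In CT26 tumors, CAT-ABP + alum against alum, edgeR called 0 of the 40 genes, against 0.0% of 12830 genes. At an unadjusted p under 0.05 there were 2 of 40, against 2.42% of all genes. DESeq2 and limma voom each called 0 (3 of 40 and 8 of 40 at an unadjusted p under 0.05, larger shares than the 2.92% and 12.0% of all genes). The log2 differences ran from -0.17 to 0.65 with a median of 0.11 (all genes, -0.0038) and a median SE of 0.14, and 32 of the 40 were positive. For 0 of 40 genes were the tumors free of overlap, against 0.218% of all genes. The 2 genes were Plk1, the Polo-like kinase of mitotic entry, and Bub1b, the BubR1 checkpoint kinase. Plk1 had 3.96 CPM in the lowest, 7.18 in the median and 8.91 in the highest CAT-ABP + alum tumor and 2.60, 3.32, 5.43, 3.14 and 6.64 CPM in the alum tumors, a difference of 0.65 ± 0.28 at few counts (edgeR adjusted p = 0.9997). Bub1b was 43.1 ± 5.95 against 33.6 ± 5.18 CPM (SD, n = 6 and 5), a difference of 0.33 ± 0.14, with overlapping tumors. For Mki67 the 95% interval of the difference was -0.43 to 0.09 and for Ccne1 -0.28 to 0.28. CT26 alum replicate 2, the lowest of its group for 33 genes, stood at 6.36 on the mean log2 scale, the lowest of these 11 tumors. It was also the shallowest of them, with 1972941 counts. Without it the median difference was 0.04, and 0 of 40 genes had an unadjusted p under 0.05 (all genes, 2.06%). Leaving out CT26 alum replicate 5, the highest alum tumor on that scale, gave a median of 0.17 and 4 of 40 (all genes, 6.06%).

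In 4T1 tumors the same treatment gave 0 of 40 by edgeR against 0.0% of 13092 genes, and 0 at an unadjusted p under 0.05 against 2.88%. Both DESeq2 and limma voom gave 0 (1 of 40 and 0 of 40 at an unadjusted p under 0.05, against 3.06% and 4.36% of all genes). The median log2 difference was 0.01, with 21 genes positive and 19 negative, and 0 of 40 were free of overlap against 0.336%. The CAT-ABP + alum tumors shared pools with 4T1 alum replicates 1 and 2 only, so treatment and pool were partly tied. With pool as a covariate 0 of 40 were called and 1 of 40 had an unadjusted p under 0.05 (all genes, 4.16%). The differences then ran from -0.44 to 0.65, where the main fit gave -0.28 to 0.44. The genes of smallest unadjusted p were Prc1 at 0.44 ± 0.26, Cenpe, a kinesin that aligns chromosomes, at 0.38 ± 0.22 and Mcm6 at -0.28 ± 0.14. The extreme tumor of the CAT-ABP + alum group was replicate 4 in each case, at 660 CPM of Prc1, 354 CPM of Cenpe and 75.7 CPM of Mcm6. Without this tumor the differences were 0.08 for Prc1, 0.09 for Cenpe and -0.22 for Mcm6, no gene had an unadjusted p under 0.05, and the 40 differences ran from -0.22 to 0.25. Without only its shallower library, Prc1 had a difference of 0.48 and Cenpe 0.38. For Mki67 the 95% interval was -0.24 to 0.61 and for Top2a -0.06 to 0.65, and without replicate 4 the differences were -0.03 ± 0.16 and 0.10 ± 0.12.

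In 4T1-CAT tumors, whose cells also carried catalase inside, CAT-ABP + alum against alum gave 0 of 40 by edgeR against 0.0% of 13093 genes, and 7 of 40 at an unadjusted p under 0.05, or 17.5%, against 15.3%. DESeq2 called 4 (Cenpe, Prc1, Top2a and Ccnd1; 10%, against 1.9% of all genes). By DESeq2 8 of 40 had an unadjusted p under 0.05, a larger share than the 16% of all genes. The limma voom fit called 0, with 9 of 40 at an unadjusted p under 0.05, also a larger share than that of all genes (18.4%). Cenpe had 165, 175, 141, 187 and 233 CPM with CAT-ABP and 138, 130, 108, 133 and 106.5 CPM without, a log2 difference of 0.54 ± 0.13 (edgeR adjusted p = 0.186). Prc1 had 302, 278, 251, 338 and 306.5 CPM against 220, 246, 231, 245 and 187 CPM, a difference of 0.38 ± 0.11 (edgeR adjusted p = 0.193). For both genes all 5 CAT-ABP + alum tumors lay above all 5 alum tumors, which held for 2 of the 40 genes, or 5.00%, against 2.56% of all genes. Mki67 had 225, 172, 171, 254 and 339 CPM against 176, 186, 125, 153 and 152 CPM, a difference of 0.54 ± 0.17 (edgeR adjusted p = 0.206), and replicate 5 was the highest while replicates 2 and 3 lay within the alum range. The other genes with an unadjusted p under 0.05 were Top2a (0.34), Ccnd1 (0.30), Nusap1 (0.28), which stabilises spindle microtubules, and Birc5 (-0.42), which encodes survivin. In the same comparison the median log2 difference of all genes was -0.17 in the 25% of genes with the shortest and 0.09 in the 25% with the longest transcripts, and the part of length was not tested.

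Catalase inside the cell was compared as 4T1-CAT alum against 4T1-control alum tumors, all on doxycycline diet, and shares the 4T1-CAT alum tumors with the comparison before it. The edgeR fit called 0 of 40 against 0.0% of 12534 genes, with 1 of 40 at an unadjusted p under 0.05 against 5.08%. Here DESeq2 and limma voom called 0 (2 of 40 and 6 of 40 at an unadjusted p under 0.05, against 5.19% and 8.89% of all genes, the limma voom share being above). That gene was Rrm2, the small subunit of ribonucleotide reductase, which had 148, 152, 126, 122 and 154 CPM in 4T1-CAT tumors and 53.4 CPM in the lowest, 93.2 in the median and 112 in the highest 4T1-control tumor. Its log2 difference was 0.55 ± 0.15 (edgeR adjusted p = 0.611), and every 4T1-CAT tumor lay above every 4T1-control tumor, as for 1 of 40 genes (2.50%) against 0.654% of all genes. Of the 40 differences, 32 were positive, with a median of 0.07 (all genes, -0.01). Without 4T1-control alum replicate 2, Rrm2 had a difference of 0.49. In that fit 6 of 40 genes had an unadjusted p under 0.05 (15%, against 6.47% of all genes), among them Ccne2 (0.62), Prc1 (0.53) and Mki67 (0.36). Tk1, the salvage kinase for thymidine, had a difference of 0.29 ± 0.14 and Aurka, the spindle pole kinase, 0.26 ± 0.15.

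Catalase on both sides of the membrane was compared as 4T1-CAT CAT-ABP + alum against 4T1-control alum tumors, which shares 1 group with each of the comparisons just given. By edgeR 0 of 40 genes were called against 0.0235% of 12781 genes (0.0156% higher and 0.00782% lower), and 8 of 40, or 20.0%, had an unadjusted p under 0.05 against 16.9%. DESeq2 called 3 (7.5%, against 3.99% of all genes) and limma voom 5 (12.5%, against 2.59%). At an unadjusted p under 0.05 DESeq2 had 9 of 40 and limma voom 12 of 40, larger shares than the 17.5% and 21.8% of all genes. The median difference was 0.15 (all genes, 0.03), and 34 of the 40 were positive. Mki67 had 225, 172, 171, 254 and 339 CPM in the 5 doubly treated tumors against 93.3 CPM in the lowest, 127 in the median and 191 in the highest of the 6 control tumors, a log2 difference of 0.78 ± 0.20 (edgeR adjusted p = 0.0943), and the groups overlapped through 4T1-control alum replicate 2. Nusap1 was 92.3 ± 7.76 against 67.3 ± 5.30 CPM, a difference of 0.40 ± 0.11 (edgeR adjusted p = 0.104), and was the 1 gene of 40 (2.50%, against 2.25% of all genes) without overlap. Ccnd1 had a difference of 0.38 ± 0.13 (edgeR adjusted p = 0.147), and Top2a (0.41), Ccne1 (0.54), Ccne2 (0.58), Cenpe (0.56) and Rrm2 (0.43) also had an unadjusted p under 0.05. Without 4T1-control alum replicate 2, the tumor of 493086 counts, edgeR called 4 of the 40 genes (10%, against 1.03% of all genes), namely Prc1 (0.91), Mki67 (0.91), Cenpe (0.79) and Top2a (0.54), and without 4T1-control alum replicate 3 it called 1, Mki67 (2.5%, against 4.54%). That shallow tumor had 456 CPM of Prc1 and 228 CPM of Cenpe, where the medians of its group were 154 and 103 CPM.

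**Figure D5:**
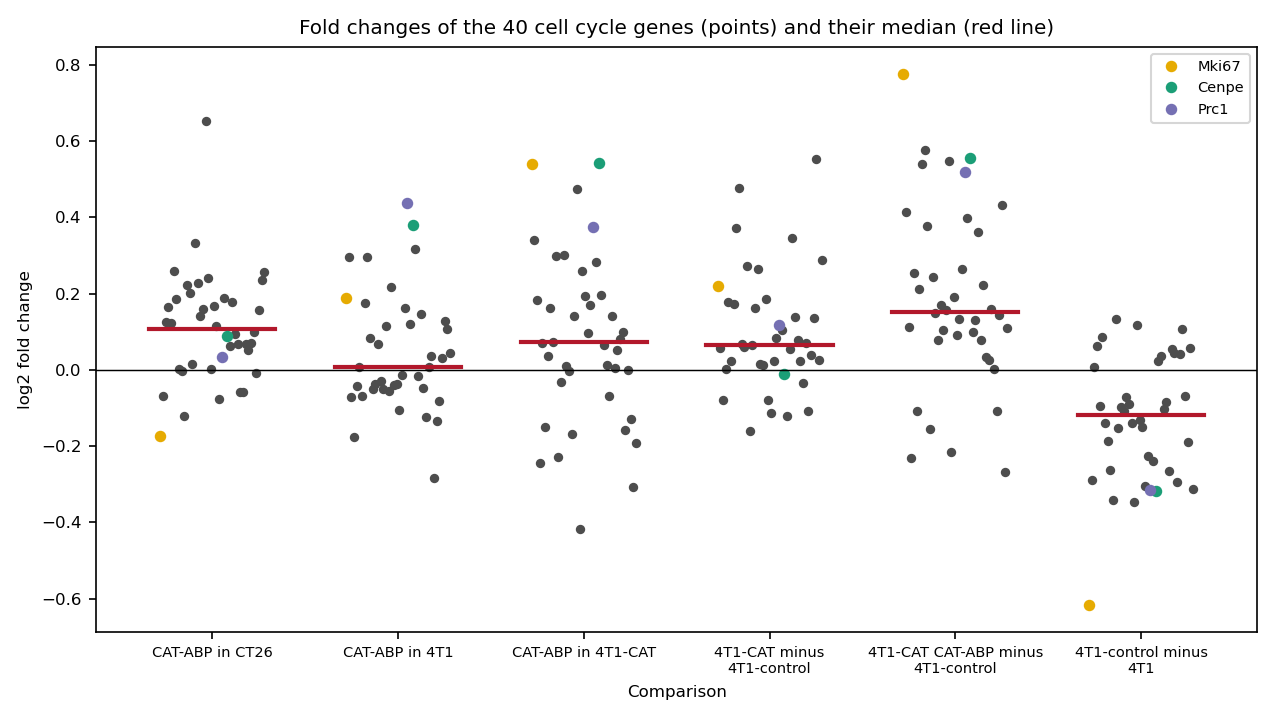
Points are the log2 differences of the 40 genes in 6 comparisons among the groups, with a bar at their median, and Mki67, Cenpe and Prc1 are coloured. The medians lay between -0.12 and 0.15, and Mki67 ran from -0.62 in 4T1-control against 4T1 alum tumors to 0.78 with both catalases.

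Since the engineered lines also differ from 4T1 by transduction and by the doxycycline diet, they were set against 4T1 directly. In alum tumors, 4T1-control against 4T1, edgeR called 0 of 40 genes against 0.0% of 12431, with 4 of 40, or 10%, at an unadjusted p under 0.05 against 10.5%. DESeq2 and limma voom called 0 (3 of 40 and 9 of 40 at an unadjusted p under 0.05, against 10.6% and 14.2% of all genes, the limma voom share being above). The median difference was -0.12 (all genes, -0.01), and 28 of 40 were negative. Mki67 was 132 ± 33.95 CPM in 4T1-control against 207 ± 42.2 CPM in 4T1 tumors (SD, n = 6 and 5), a difference of -0.62 ± 0.19 (edgeR adjusted p = 0.262). Without 4T1-control alum replicate 2 the Mki67 difference was -0.75 ± 0.16 (edgeR adjusted p = 0.0837), with Prc1 at -0.72 and Cenpe at -0.56. The others with an unadjusted p under 0.05 were Ccnd1 (-0.34 ± 0.13), Mcm6 (-0.29 ± 0.14) and Tk1 (-0.31), and 0 of 40 genes were free of overlap against 1.4% of all genes. Without the low-depth libraries Prc1 passed in this comparison (-0.74, edgeR adjusted p = 0.0482), which was 1 of 40, or 2.5%, against 0.114% of all genes. Against 4T1 alum replicates 3 to 5, in the same pools, 0 of 40 genes had an unadjusted p under 0.05 (all genes, 7.21%). The median difference was then -0.03. With pool as a covariate, 2 of 40 had such a p (all genes, 7.79%) and the median difference was -0.06. In CAT-ABP + alum tumors, 4T1-CAT against 4T1, edgeR called 0 of 40 genes against 0.0151% of 13235, 0 of 40 had an unadjusted p under 0.05 against 4.28%. Both DESeq2 and limma voom called 0 (0 and 0 at an unadjusted p under 0.05, against 4.8% and 6.71% of all genes). No gene was free of overlap, against 0.529% of all genes. The differences ran from -0.34 for Tyms, thymidylate synthase, to 0.19 for Ccna2, which encodes cyclin A. In that comparison the tumors of the 2 lines were in different pools, so line and pool cannot be told apart.

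Whether the response to CAT-ABP differed between models was tested as an interaction. For CT26 against 4T1, edgeR called 0 of 40 genes against 0.0% of 14160, with 0 at an unadjusted p under 0.05 against 3.59%. Both DESeq2 and limma voom gave 0 (0 of 40 and 1 of 40 at an unadjusted p under 0.05, against 4.24% and 8.71% of all genes). The genes of smallest unadjusted p were Top2a at -0.38 ± 0.21, Bub1b at 0.34 and Mcm6 at 0.33. The 40 estimates ran from -0.43 to 0.41. The 4T1 alum tumors, which enter both interactions, lay in different pools. With pool as a covariate 0 of 40 were called and 2 of 40 had an unadjusted p under 0.05 (all genes, 4.15%). The estimates then ran from -0.58 to 0.62. Without 4T1 CAT-ABP + alum replicate 4 Top2a stood at -0.19 and Bub1b at 0.40. For 4T1-CAT against 4T1, DESeq2 and limma voom called 0 of 40 genes (2 and 1 at an unadjusted p under 0.05, against 9.49% and 7.98% of all genes). By edgeR 0 of 40 were called against 0.0% of 13851, with 1 of 40, or 2.50%, at an unadjusted p under 0.05 against 8.79%. That gene was Mcm6, at 0.36 ± 0.17 (edgeR adjusted p = 0.557), and the median estimate was 0.03. A fit with pool as a covariate called 0 of 40, with 2 of 40 at an unadjusted p under 0.05 (all genes, 9.42%). Its estimates ran from -0.54 to 0.57. Without 4T1 CAT-ABP + alum replicate 4, Mki67 (0.58) and Cenpe (0.46) had an unadjusted p under 0.05 in place of Mcm6, and 0 of 40 were called by edgeR. The first of these tests is also the test of whether the line differences among alum and among CAT-ABP + alum tumors differ, so for none of the 40 genes was the line difference shown to depend on treatment.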

How the data were processed

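HT3DGE libraries were processed by the authors to estimated counts per gene, not normalized, with the Smart-seq2 pipeline on Terra; the aligner, genome build and strand setting are not given in the sources used here, nor is whether molecular identifiers were collapsed. Of the nonzero deposited estimated counts, 39.7% were not whole. The 2 technical libraries of each tumor (46233 to 6958625 counts a library; median correlation 0.951) were summed and rounded. All 55536 gene IDs were in GENCODE M21, and exons of 14 of the 40 genes overlap another gene, on the opposite strand for 11. The authors left out some shallow technical libraries that are not named, so all 76 were used.

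Each comparison was fitted on its 2 groups in R 4.3.3 with edgeR 4.0.16 (filterByExpr, TMM, quasi-likelihood F test), and interactions on 4 groups; p-values were Benjamini-Hochberg adjusted over all genes tested. CPM are counts scaled by TMM library sizes, not divided by length, so levels were not compared between genes. Exact permutation tests used log2 CPM with a prior count of 2. DESeq2 1.42.0 and limma 3.58.1 voom, other scalings, filters and pools, single technical libraries and left-out tumors were alternatives. In simulated data the 2-group fits recovered 11.9 to 28.4% of genes changed 1.5-fold, 53.7 to 77.6% of those changed 2-fold and 87.9 to 98.5% of those changed 4-fold. The interaction fit of CT26 and 4T1 recovered 1.5%, 22.4% and 77.3% of these. The interaction fit of 4T1-CAT and 4T1 recovered 3%, 44.8% and 75.8%. Named with values were, in each comparison, members past the threshold (up to 8 a direction), or else the 3 of smallest p; Mki67, Top2a, Ccnd1, Ccne1 and Ccne2; and up to 5 other cycle genes a direction with the D cyclins. Further genes named were chosen after their values were seen. Binomial intervals cover counting error only. The members and gene lists were chosen with earlier results of these data known.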

Additional observations from a re-analysis of the deposited data

Results flagged for a closer look

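In 182 sets of tumors (25 named genes and the mean over the 40 genes, in 7 groups), 20 single tumors lay further from the rest of their group than Dixon's 95% limit for the gap between neighbouring values. Chance gives such a gap in about 1 in 20 groups, and 13 of the 20 were in the 2 tumors of lowest depth.

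The tumor 4T1-control alum replicate 2, with 493086 counts, had 6 of the 20. It was high for Prc1 (455.7 CPM, the next tumor at 170.7), Cenpe (227.8, next 104.4), Ccne2 (26.68, next 14.47) and Plk1 (16.42, next 4.863), and low for Pcna (213.5, next 374.4) and Ccnb2 (32.84, next 75.55).

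The tumor 4T1 CAT-ABP + alum replicate 4, with 837522 counts, had 7. It was high for Top2a (764.4 CPM, next 503.5), Prc1 (659.8, next 384.7), Cenpe (353.8, next 175.6) and Tpx2 (158.0, next 119.8), and low for Foxm1 (14.46, next 31.59), Mcm6 (75.66, next 117.5) and Stmn1 (149.1, next 182.6). Prc1 and Cenpe were the highest of their group in both of these tumors.

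The other 7 were in deeper tumors. Mki67 was high in CT26 CAT-ABP + alum replicate 2 (174.6 CPM, next 132.9), Mcm6 in 4T1-CAT alum replicate 1 (149.7, next 126.6) and Nusap1 in 4T1 CAT-ABP + alum replicate 1 (110.7, next 92.76). Bub1b was low in CT26 CAT-ABP + alum replicate 4 (31.85 CPM, next 42.71), Tpx2 in 4T1-CAT CAT-ABP + alum replicate 3 (82.41, next 115.0), Kif11 in 4T1 alum replicate 1 (59.15, next 67.14) and Aurkb in 4T1 alum replicate 5 (45.8, next 59.97).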

How the results depend on the processing

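No named gene changed sign past the threshold under any alternative run, and 1596 values for single genes stayed on their side of the threshold while 48 lost and 12 gained a call. Of the 40 genes, 12 differed between CT26 and 4T1 in alum tumors, and 6 passed from technical replicate 2 alone (15.4%, against 29.5% of all genes). Within the shared pools 4 passed (10%, against 27.4%) and against 4T1 tumors of the other pools 7 (17.5%, against 32.9%), both chosen after seeing the data. On leaving out 1 tumor 9 to 15 passed (all genes, 4823 to 5718). Foxm1, Ccne1 and Mcm6 passed in all 23 alternatives. Mki67 lost its call without CT26 alum replicate 1 (-0.46) or 4T1 alum replicate 1 (-0.46), 2 (-0.36) or 4 (-0.46), Prc1 without 4T1 alum replicate 1 (0.45), Ccne2 without CT26 alum replicate 5 (0.52) or 4T1 alum replicate 3 (0.59), and Pcna without CT26 alum replicate 3 (0.49), 4 (0.46) or 5 (0.40) or 4T1 alum replicate 1 (0.48), 3 (0.50) or 4 (0.48). In CAT-ABP + alum tumors, 11 of the 40 genes (27.5%, against 45.5% of all genes) became 17 with DESeq2 (42.5%, against 47.7%). A fit of 1 model over all groups also gave 17 (42.5%, against 46.1%). With limma voom 23 passed (57.5%, against 52.7%), a share above that of all genes. Leaving out 1 tumor gave 11 to 17, the 17 without CT26 CAT-ABP + alum replicate 2 (all genes, 6038). Ccnb2 lost its call in 7 of 22 alternatives (-0.26 without that tumor). CAT-ABP in 4T1-CAT tumors went from 0 to 4 genes with DESeq2 (10%, against 1.9% of all genes). With both catalases 0 became 3 with DESeq2 (7.5%, against 3.99% of all genes) and 5 with limma voom (12.5%, against 2.59%). It became 2 with no filter on low counts (5%, against 1.81%), 4 without low-depth libraries (10%, against 1.13%), and 0 to 4 on leaving out 1 tumor. The 4T1-control against 4T1 comparison went from 0 to 1 with no filter (Mki67, 2.5% against 0.456% of all genes) and to 1 without low-depth libraries (Prc1, 2.5% against 0.114%). The cause of these changes was not tested. Over all genes, DESeq2, limma voom and no filter called 249, 10 and 47 genes for CAT-ABP in 4T1-CAT tumors (0 in the report), 510, 331 and 532 with both catalases (3), 16, 12 and 130 in 4T1-control against 4T1 (0), and 8, 5 and 13 in 4T1-CAT against 4T1 (2); DESeq2 and no filter called 6 and 131 for intracellular catalase (0), and no filter 16 for CAT-ABP in 4T1 tumors (0). With both catalases, leaving out 1 tumor gave 0 to 575 genes (575 without 4T1-control alum replicate 3, 131 without replicate 2). Technical replicate 2 alone called 2849 genes between the lines in alum (5434) and 3559 in CAT-ABP + alum tumors (5928). In the 150 bases before the start, the share of promoters with a CHR match was 45.2% and with TTTGAA 29.0%, against 80.6% and 51.6% in the full window; for all genes these were 23.0% and 10.5% against 40.8% and 20.2%. The replicate numbers share only a number: correlations of same-numbered tumors ran from -0.29 to 0.335. With a replicate block 16 of the 40 genes (40%, against 45.4% of all genes) differed between the lines in CAT-ABP + alum tumors. In alum tumors 12 did (30%, against 41.9%), with 0 in each comparison that had 0. The pool term could not be fitted for 4T1-CAT against 4T1 tumors. Depth limits Plk1, at 1.66 to 16.4 CPM, and the tumor of 493086 counts most.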
